A study of Mus musculus with 4 samples.

Results

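The regions described here were the stretches of mouse chromosomes 1 to 19 with the most 5-hydroxymethylcytosine (5hmC) peaks in differentiated chondrocytes. Each chromosome was divided into fixed windows of 500 kb, and a window was kept when the day 20 peak list placed the start of 40 or more peaks in it. Of 4895 windows, 88 met this rule (1.8%), and they held 3827 of the 56105 day 20 peaks on these chromosomes (6.82%, 95% Wilson interval 6.62 to 7.03). Because the windows were chosen by their day 20 peak count, that count is a description and is not compared with other windows.

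The cells were ATDC5, a mouse line used as a culture model of cartilage formation, whose chondroprogenitors turn into chondrocytes in medium with insulin, transferrin and selenite. There were 4 libraries of DNA captured for 5hmC, 2 from chondrocytes (day 19 and day 20) and 2 from chondroprogenitors (day 0, before that supplement). All cells were kept in the same basal medium with fetal bovine serum and ascorbic acid, and all were of a single cell line grown in culture. One list was deposited for each stage, made after merging libraries per the file headers, and the headers do not say whether the day 19 library entered the day 20 list. The lists gave peak positions and gene symbols with no height or fold for any peak, so no spread between replicates could be measured and no difference below carries a test.

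5hmC is made from 5-methylcytosine by the TET dioxygenases. It can persist as a mark or be oxidised further and lost through base excision repair, and it is known to be common in the bodies of active genes and at enhancers, and scarce at CpG-rich gene starts that are free of DNA methylation. Chondrocyte differentiation is driven by SOX9 and by TGF-beta, BMP, WNT and hedgehog signals, and ends in hypertrophic cells that make a mineralising matrix.

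Some 5hmC peaks of the dense windows touched the 300 bases around the start of a protein-coding gene, and 6 such stretches are shown because each comes from a window described below. In all but that of Hoxa5 the start base itself lay in the peak. Each sequence runs 5′ to 3′ on the gene's strand from 250 bases before to 50 bases after an annotated start, as given by RefSeq for GRCm38.p6, with every CpG pair in capitals.
Dmp1: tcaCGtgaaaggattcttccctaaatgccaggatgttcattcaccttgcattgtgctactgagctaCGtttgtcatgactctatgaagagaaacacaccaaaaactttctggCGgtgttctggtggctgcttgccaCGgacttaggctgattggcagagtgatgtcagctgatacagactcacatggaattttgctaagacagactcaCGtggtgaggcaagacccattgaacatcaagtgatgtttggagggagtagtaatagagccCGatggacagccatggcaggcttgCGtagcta
Spp1: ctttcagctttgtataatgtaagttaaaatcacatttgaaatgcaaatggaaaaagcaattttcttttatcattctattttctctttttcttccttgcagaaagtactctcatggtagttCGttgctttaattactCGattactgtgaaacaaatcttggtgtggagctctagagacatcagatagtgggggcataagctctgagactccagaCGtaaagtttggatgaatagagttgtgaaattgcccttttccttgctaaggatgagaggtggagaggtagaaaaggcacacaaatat
Foxp1: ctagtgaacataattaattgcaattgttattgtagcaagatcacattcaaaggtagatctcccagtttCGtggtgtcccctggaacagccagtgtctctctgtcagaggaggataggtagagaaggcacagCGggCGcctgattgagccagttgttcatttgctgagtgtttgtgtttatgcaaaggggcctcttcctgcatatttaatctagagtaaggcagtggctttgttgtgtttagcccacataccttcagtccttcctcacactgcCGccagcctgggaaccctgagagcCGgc
Hoxa5: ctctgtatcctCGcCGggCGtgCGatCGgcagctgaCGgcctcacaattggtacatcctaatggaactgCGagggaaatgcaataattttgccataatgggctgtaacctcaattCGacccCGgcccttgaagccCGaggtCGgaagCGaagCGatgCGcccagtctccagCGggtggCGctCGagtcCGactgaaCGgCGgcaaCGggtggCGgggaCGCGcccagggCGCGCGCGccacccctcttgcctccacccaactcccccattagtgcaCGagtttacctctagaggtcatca
Ablim1: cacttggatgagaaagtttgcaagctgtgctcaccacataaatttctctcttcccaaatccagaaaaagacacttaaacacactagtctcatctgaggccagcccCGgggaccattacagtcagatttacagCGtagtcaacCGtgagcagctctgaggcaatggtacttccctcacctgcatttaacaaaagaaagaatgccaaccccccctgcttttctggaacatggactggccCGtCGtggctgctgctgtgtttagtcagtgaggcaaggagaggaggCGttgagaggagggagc
Sema4d: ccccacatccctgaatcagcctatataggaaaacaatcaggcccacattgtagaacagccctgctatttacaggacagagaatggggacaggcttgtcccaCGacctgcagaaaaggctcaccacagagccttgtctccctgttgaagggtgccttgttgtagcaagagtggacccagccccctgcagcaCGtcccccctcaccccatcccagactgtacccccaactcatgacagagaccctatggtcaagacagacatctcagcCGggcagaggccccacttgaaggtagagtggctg
The Dmp1 sequence (chr5:104197325-104197624, plus strand) is 1 of 2 annotated starts of that gene. It lay wholly inside a day 20 peak of 721 bp and held 7 CpG pairs, a number reached by 65.2% of the 20085 coding gene starts on chromosomes 1 to 19. The Spp1 sequence (chr5:104435942-104436241, plus strand) held 3 CpG pairs, with 166 of its bases in a peak. It is 1 of 2 annotated starts, and the other touched no peak. The start base shown (104436192) lies inside the gene, which begins at 104435111. Of the 3 annotated Foxp1 starts only the one shown touched a peak (chr6:99266466-99266765, minus strand, 5 CpG pairs, 116 bases in the peak). Hoxa5 (chr6:52204538-52204837, minus strand) was the CpG-rich case of the 6, with 29 CpG pairs and 170 of the bases before the start in a peak of 931 bp. One of 5 annotated Ablim1 starts (chr19:57118975-57119274, minus strand, 6 CpG pairs) lay wholly inside a peak of 1195 bp. One of 3 annotated Sema4d starts (chr13:51748761-51749060, minus strand, 3 CpG pairs) lay wholly inside a peak of 1185 bp. No other annotated start of either gene touched a peak.

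The dense windows had between 40 and 56 day 20 peaks, with a median of 42.5. Just inside the threshold, 21 windows had 40 peaks, with 43.6% of peaks without a symbol, a median peak width of 704.5 bp and 12 day 0 peaks. Just outside it, 19 windows had 39 peaks, with 36.8% without a symbol, a median width of 667 bp and 13 day 0 peaks. Peaks were spread through the windows: 77 of the 88 had a peak in all 10 stretches of 50 kb, and the median spacing between neighbouring peaks was 6.48 to 11.04 kb. The longest stretch between peaks was 23.9 to 107 kb. The windows next to a dense window, some of them dense themselves, had a median of 28 day 20 peaks. The median over all windows was 8. When peaks within 1 kb of each other were merged, 35 windows reached 40 peaks, and with bins shifted by 250 kb 50 of the 88 overlapped a dense window.

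The windows were unevenly placed. Chromosome 5 had 18 of its 304 windows above the threshold and chromosome 6 had 14 of 300. Chromosome 11 had 9 of 244, chromosome 10 had 6 of 256, chromosome 13 had 6 of 235 and chromosome 17 had 6 of 190. Chromosomes 12 and 18 had none, at 12.1 and 16.8 day 20 peaks per Mb, against 27.7 on chromosome 5 and 27.3 on chromosome 6. Chromosome 19 had the highest overall density of the 19, at 35.2 peaks per Mb, and 3 of its 117 windows were dense (2.56%, against 5.92% on chromosome 5).

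Peaks in the dense windows were wide. Their median width was 720 bp (interval of the median 708 to 732, quartiles 563 and 985), against 585 bp in all other windows (582 to 587). Sorted by day 20 peak count, median width was 479.5 bp in windows with 1 to 9 peaks, 547 bp with 10 to 19, 608 bp with 20 to 29, 660 bp with 30 to 39 and 720 bp with 40 or more. The dense windows therefore stood at the top of a graded order, with quartiles that overlapped those of the next class. Median width lay above the median of the whole list (591 bp) in 82 of the 88 windows. Peaks together spanned 7.22% of the dense windows and 4.71 to 12.8% of single ones, a share that depends on the peak count used to choose them.

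**Figure D1:**
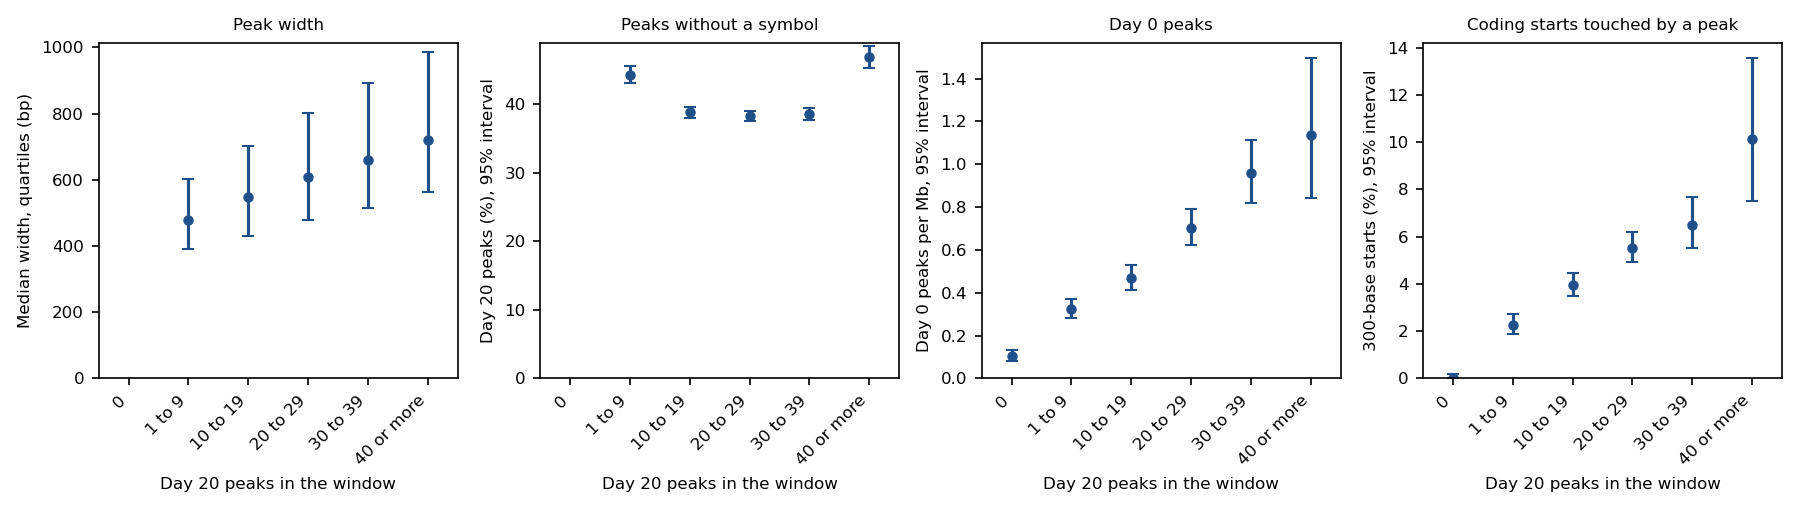
Median peak width with quartiles, share of day 20 peaks without a gene symbol, day 0 peaks per Mb and share of coding gene starts, taken as 300 bases, touched by a day 20 peak (the last 3 with 95% intervals for counting error), for windows grouped along the horizontal axis by their number of day 20 peaks. Width, day 0 density and the share of starts are higher in each denser class, while the share without a symbol is 44.3% in windows with 1 to 9 peaks, near 38% in the middle classes and 46.9% in the dense windows.

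The authors gave no gene symbol to 1794 of the 3827 peaks in the dense windows (46.9%, 45.3 to 48.5), against 39.1% in all other windows (38.7 to 39.6) and 38.5% in windows with 30 to 39 peaks. Counting only peaks at least as wide as the list's median, with a threshold of 20, the shares were 38.5% in 351 windows and 37.1% elsewhere. Of the 1794 peaks, 117 lay in a protein-coding gene of the RefSeq table (6.52%, other windows 7.17%). In a gene of any type lay 498 (27.8%, other windows 24.9%). By position, 48.3% of peaks in the dense windows overlapped a protein-coding gene (46.7 to 49.9), against 55.3% in the other windows. Protein-coding genes covered a mean of 47.1% of a dense window and 40.1% of one of the other windows. In windows with 30 to 39 peaks the cover was 55.4% and the share of peaks in such genes 56.2%. The windows differed widely among themselves, with 0 to 100% of peaks lacking a symbol (quartiles 24.3 and 67.7).

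At one end were 14 windows with 80% or more of their peaks lacking a symbol, where protein-coding genes covered a median of 7.46% of the window (0 to 24.1%). At the other were 18 windows with 20% or fewer, with a median cover of 75.1% (22.6 to 100%). The median over windows of their median peak width was 667.25 bp in the 14 windows poor in symbols (554 to 831) and 701.5 bp in the 18 rich in them (593.5 to 1022), ranges that overlapped. Day 0 peaks numbered 4 in the windows poor in symbols (0.571 per Mb, exact Poisson interval 0.156 to 1.46) and 12 in those rich in them (1.33 per Mb, 0.689 to 2.33), with intervals that overlapped.

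**Figure D2:**
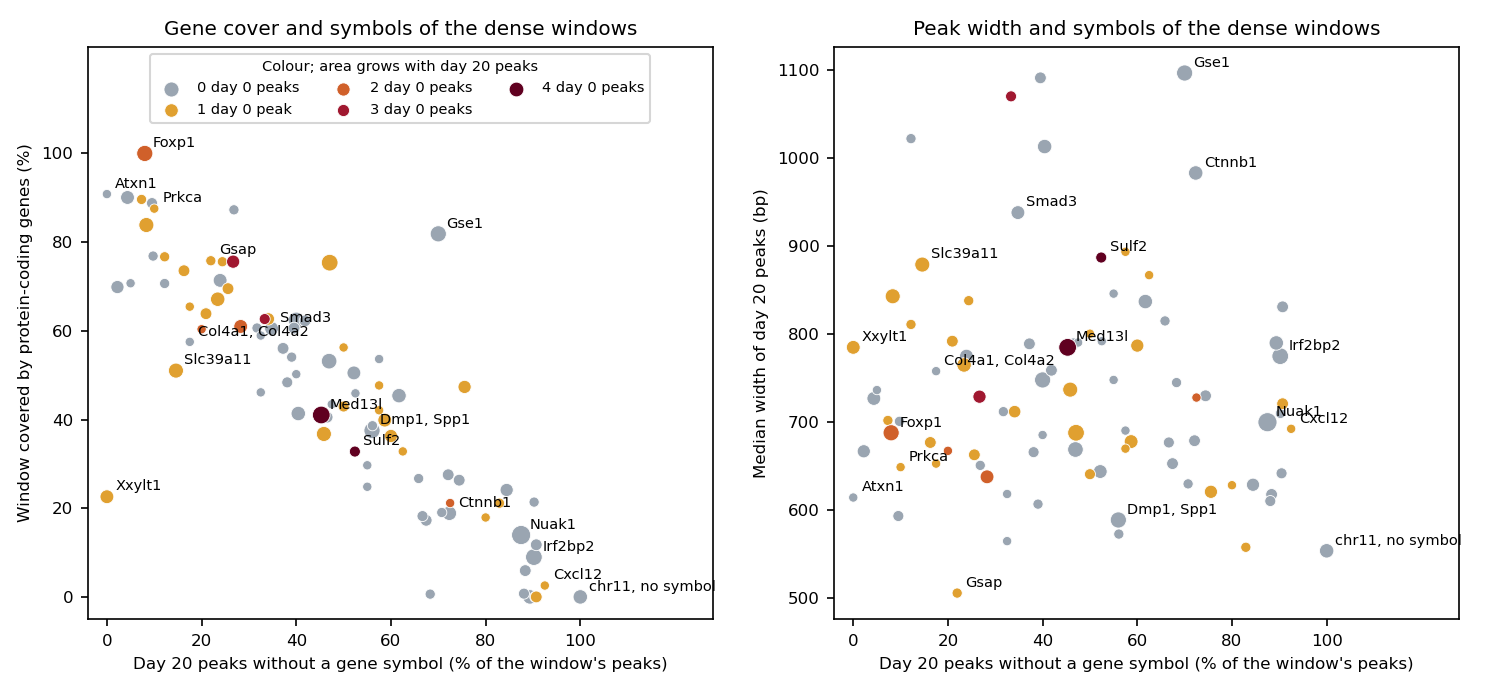
Each point is 1 of the 88 dense windows, by the share of its day 20 peaks without a symbol (horizontal axis) and by its cover of protein-coding genes (left) or median peak width (right); colour gives day 0 peaks and area grows with day 20 peaks. Gene cover is low where few peaks have a symbol, with the Gse1 window at 81.9% cover and 70% without a symbol and the Xxylt1 window at 22.6% cover and 0% without a symbol away from the band, while width shows no such order.

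The window with the most day 20 peaks lay at 84.0 to 84.5 Mb of chromosome 10. It had 56 peaks, of which 49 had no symbol (87.5%) and the other 7 carried Nuak1, which encodes an AMPK-related kinase. Nuak1 covered 69.8 kb, the only protein-coding gene there, and a peak of 3210 bp within it was the widest of the window. The neighbouring windows had 35 and 27 peaks, and no day 0 peak lay in it.

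Among the other windows of the top 10 by count, gene cover varied. Prmt8, an arginine methyltransferase gene, had 9 peaks by position and Tspan11, a tetraspanin gene, 7 at 127.5 Mb of chromosome 6, where 40% of 50 peaks had no symbol. Jmjd1c, of the histone demethylase family, had 17 and Reep3 8 at 67.0 Mb of chromosome 10, a window of 49 peaks. The 3 windows with 48 peaks held Prkar1b, which encodes a regulatory subunit of protein kinase A (17 peaks, chromosome 5, 139.0 Mb), St3gal5 and Atoh8 (7 and 5, chromosome 6, 72.0 Mb) and the zinc transporter gene Slc39a11 (23, chromosome 11, 113.0 Mb). These 3 had 8.33%, 45.8% and 14.6% of peaks without a symbol and 1 day 0 peak each.

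Several dense windows lay wholly or almost wholly outside protein-coding genes. At 112.0 to 112.5 Mb of chromosome 11 none of 47 peaks had a symbol and no protein-coding gene was placed. The nearest coding gene after it was Sox9, which encodes the central transcription factor of chondrogenesis, 282 kb away, and Gm11677 lay 274 kb before it. The peaks were narrow for a dense window, with a median of 554 bp. The window at 111.5 Mb of chromosome 5 had 47 peaks, 89.4% without a symbol, and began 43.0 kb beyond Mn1. On chromosome 13, the window at 52.0 Mb (43 peaks, 90.7%) ended 4.38 kb before Diras2, which encodes a small GTPase, and the window at 44.0 Mb (42 peaks, 90.5%) ended 231 kb before Jarid2, a component of Polycomb repressive complex PRC2. These 4 were the dense windows without a protein-coding gene, and in each of them 2 to 9 peaks without a symbol overlapped a gene of another type.

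Some other gene-poor windows held 1 protein-coding gene, among them those of Cxcl12, Irx5, Rybp and Gas1. Others held more, such as 3 at 111.5 Mb of chromosome 10 and 4 at 51.0 Mb of chromosome 6. Cxcl12, which encodes a chemokine of stromal cells, was the only protein-coding gene at 117.0 Mb of chromosome 6, where 37 of 40 peaks lacked a symbol (92.5%). The authors gave Cxcl12 to 3 peaks, of which 1 overlapped the gene of 12.8 kb. Irx5, an Iroquois homeobox gene, was alone at 92.0 Mb of chromosome 8, with 88.1% of 42 peaks without a symbol and 1 peak in the gene. Rybp, which encodes a Polycomb subunit, was alone at 100 Mb of chromosome 6, with 39 of 43 peaks without a symbol and 2 peaks in the gene. The window of Irf2bp2, a transcriptional corepressor gene, at 126.5 Mb of chromosome 8 had 3 protein-coding genes and 51 peaks, 46 of them without a symbol. Only 1 of its peaks overlapped a protein-coding gene, and that gene was Rbm34. Gas1, a hedgehog co-receptor gene of 3.13 kb, was the only protein-coding gene at 60.0 Mb of chromosome 13, where 0 of 41 peaks overlapped it and the authors gave its symbol to 1.

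At the other end, 14 windows had a leading symbol on 50% or more of their peaks. Foxp1, a forkhead transcription factor gene that spans 597 kb, filled the window at 99 Mb of chromosome 6, with all 50 peaks inside it by position and 46 given its symbol. Over its whole length Foxp1 held 59 day 20 peaks and 2 day 0 peaks. At 45.5 Mb of chromosome 13 all 40 peaks had a symbol, 37 of them Atxn1, which encodes a chromatin-binding protein, and 3 Gmpr, and no day 0 peak lay there. Prkca, the gene of protein kinase C alpha, carried 32 of 40 peaks at 108.0 Mb of chromosome 11. Babam2, listed under its older name Bre, carried 29 of 42 at 31.5 Mb of chromosome 5. The windows with the fewest peaks lacking a symbol, after the Atxn1 window and one on chromosome 16, were those of Chn2 (2.22%), of Stx8 and the netrin gene Ntn1 (4.35%, chromosome 11, 68.0 Mb) and of Antxr1 (5%, chromosome 6, 87.0 Mb). Stx8 had 22 peaks by position in its window, Ntn1 16 and Antxr1, a collagen-binding receptor gene, 25.

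The dense windows as a whole averaged 87.0 peaks per Mb. Within their windows, Foxp1 had a density of 100 peaks per Mb of gene, Atxn1 89.1, Prkca 93.1 and Med13l 127. The signalling adaptor Rptor, which carried 23 of 41 peaks at 119.5 Mb of chromosome 11, had 77.5 per Mb. The remaining windows led by one symbol were those of Med13l, Scfd2, Asap1, Limch1, Antxr1, Chn2, Thada and Tbc1d1, and the chromosome 16 window with the symbol Mir1195.

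**Figure D3:**
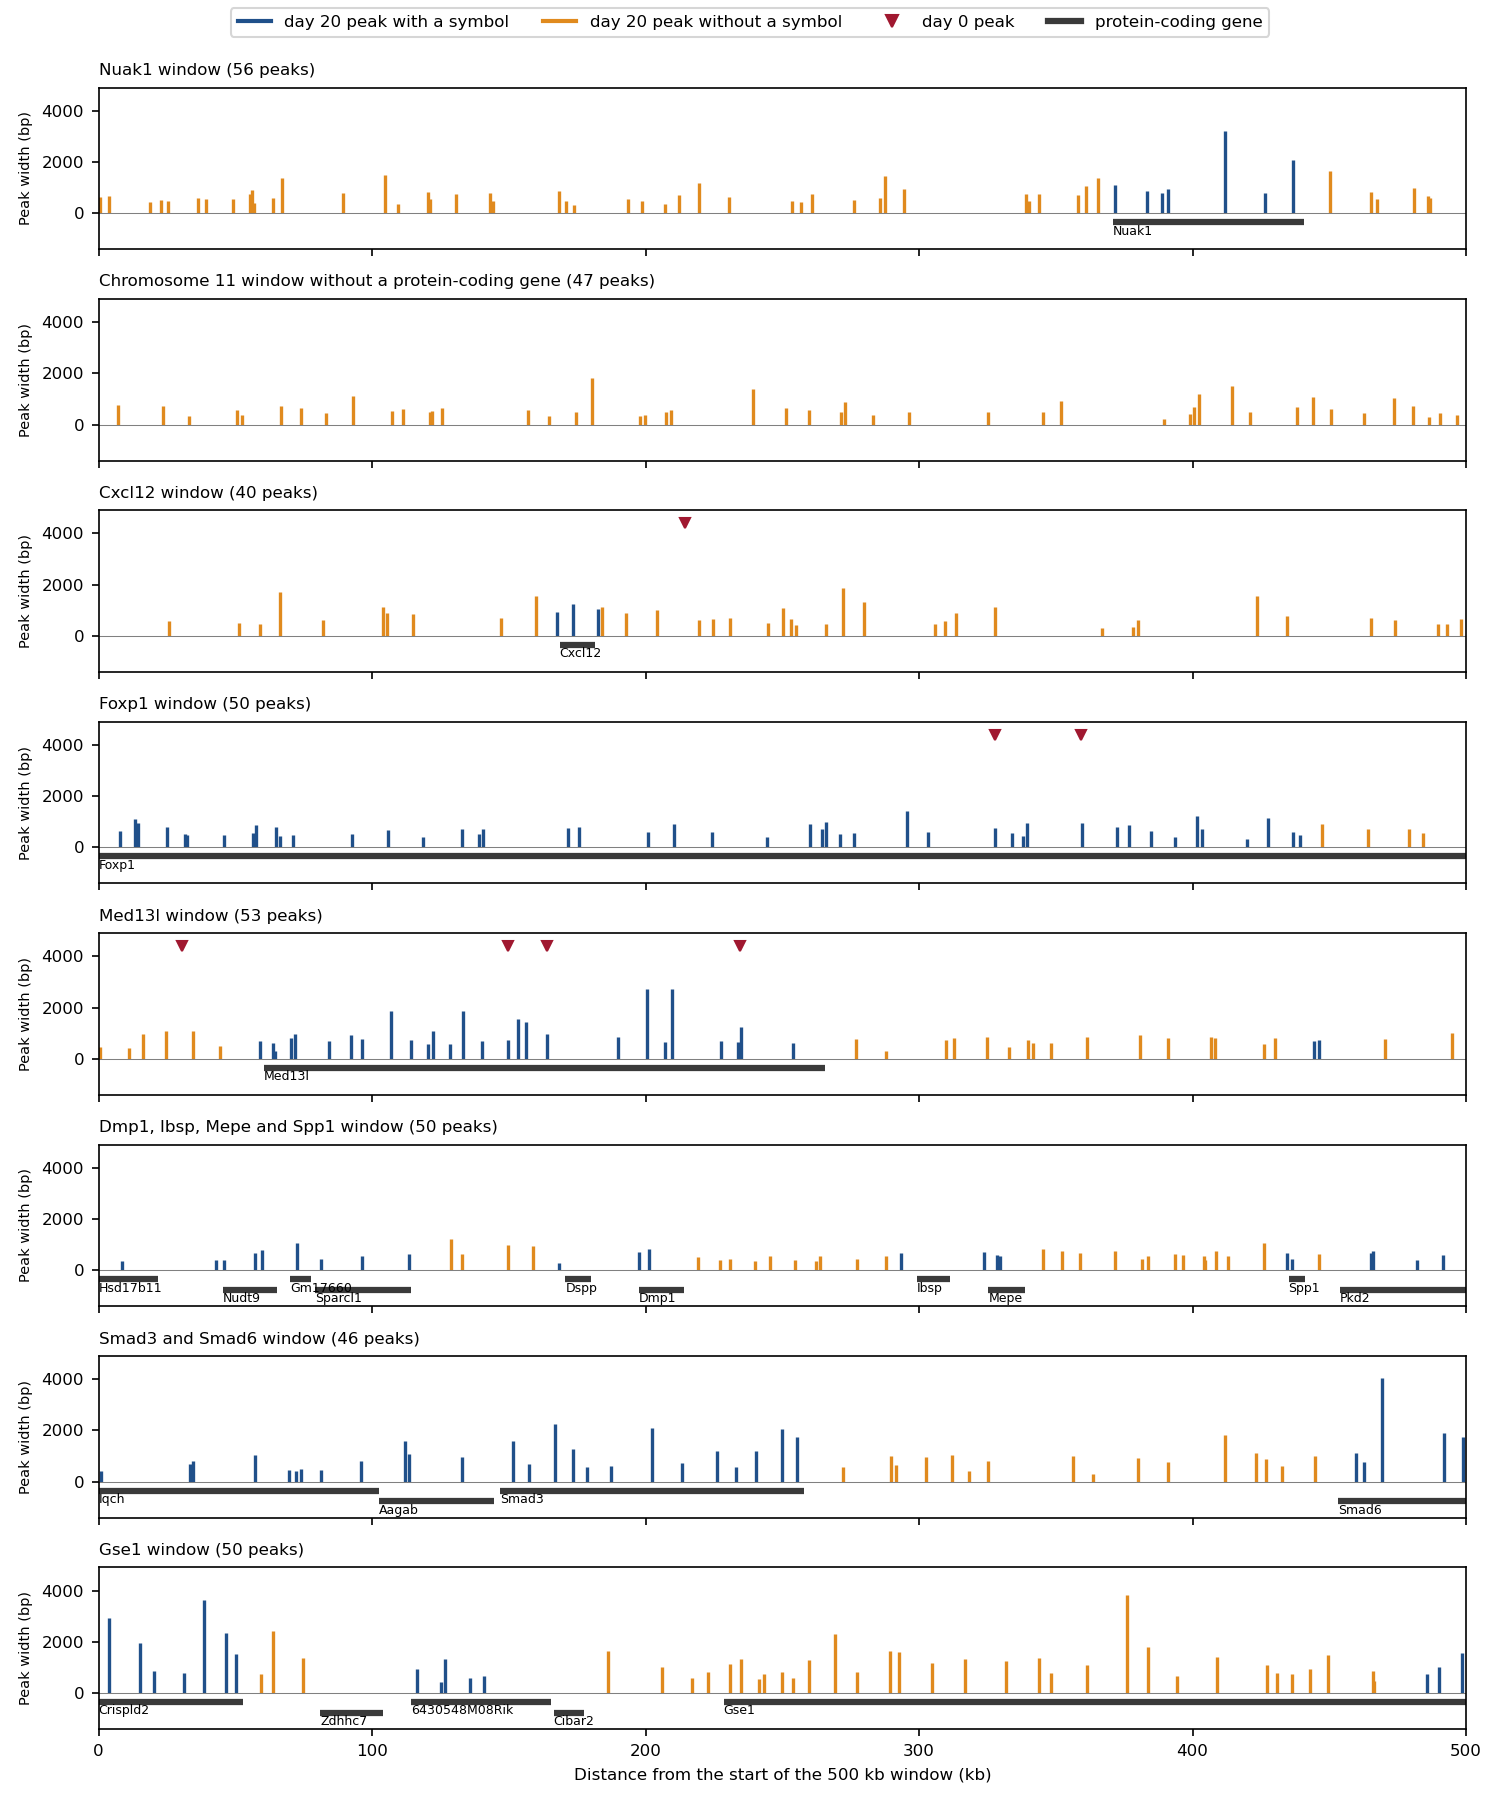
Day 20 peaks of 8 dense windows by distance from the window's start (kb, horizontal) and width (bp, height of each bar), coloured by whether the authors gave a symbol, with protein-coding genes as dark bars and day 0 peaks as triangles. The 47 peaks of the chromosome 11 window lie without a protein-coding gene, the 50 peaks of the Foxp1 window lie in a single gene, and the Gse1 window has peaks without a symbol along a gene body.

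The symbol was not always a guide to position. At 120.0 Mb of chromosome 8, 35 of 50 peaks had no symbol (70%), yet 43 overlapped a protein-coding gene. Gse1, which encodes a subunit of a histone deacetylase complex, had the symbol on 3 peaks and 31 peaks by position. That window also had the widest peaks of the 88, with a median of 1096.5 bp and 12.8% of its length in peaks. Nav1, which encodes a microtubule-associated protein, likewise had 10 peaks by symbol and 24 by position at 135.5 Mb of chromosome 1. Ablim1, an actin-binding LIM protein gene, had 21 by symbol and 29 by position.

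At 30.5 Mb of chromosome 16 all 46 peaks had a symbol, but 33 of them carried Mir1195, a microRNA that the gene table places on chromosome 17. Whether the authors' annotation placed a copy of it on chromosome 16 is not known here. Of those 33 peaks, 1 overlapped a protein-coding gene. In the Irf2bp2 window 3 peaks carried Mir3110, placed on chromosome X by the table. Among 16 microRNA hairpins that the table places in the dense windows, 2 overlapped a day 20 peak (Mir6406 and Mir7212). Day 20 peaks spanned 7.22% of these windows, and hairpins of other windows were not counted, so the 2 are a description. Mir148a lay 4.44 kb and Mir196b 1.90 kb from the nearest peak.

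Genes of cartilage and its signals were looked up by position in 11 lists, and 15 of 280 members on chromosomes 1 to 19 overlapped a dense window (5.36%), against 395 of 20665 protein-coding genes (1.91%). The lists were compiled with earlier results of these data known, and gene length was not matched, so the counts are descriptions. Which members were found depended on the bin edges. With bins shifted by 250 kb the number was again 15, beside 354 of 20665 protein-coding genes, but only Foxp1, Lrp6 and Ctnnb1 were among both sets. Of the 23 genes of hypertrophy and mineralisation, 4 overlapped a dense window, all in the same one, and 0 did with shifted bins. None of the 24 cartilage matrix genes did, and of the 30 chondrogenic transcription factors only Foxp1 did, while with shifted bins 5 did (Foxp1, Glis3, Runx1, Runx2 and Sox9). The lists of actin and adhesion (0 of 24), neuronal (0 of 22) and immune genes (0 of 21) had no member in a dense window, while 2 of 22 housekeeping genes did. With shifted bins the actin and adhesion list had 2 and the housekeeping list 0. Among the housekeeping genes found was Ywhaz, a 14-3-3 adaptor gene with 2 peaks at 36.5 Mb of chromosome 15. The WNT list had 3 of 32, TGF-beta and BMP 2 of 34, insulin and IGF 2 of 24, and hedgehog and FGF 1 of 24. With shifted bins these lists had 4, 1, 3 and 0 members.

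The 4 mineralisation genes lay together at 104.0 to 104.5 Mb of chromosome 5. Dmp1, Ibsp, Mepe and Spp1, with Dspp beside them, encode secreted acidic phosphoproteins of bone and dentin, and Spp1 (osteopontin) and Ibsp (bone sialoprotein) are textbook products of hypertrophic chondrocytes and osteoblasts. The window had 50 day 20 peaks with a median width of 589 bp and no day 0 peak. By position 2 peaks lay in Dmp1, 2 in Mepe, 1 in Spp1 and 0 in Ibsp and Dspp, while the authors gave their symbols to 2, 3, 2, 1 and 1 peaks. Only 17 of the 50 peaks overlapped a protein-coding gene, and 28 had no symbol. The window before it had 31 peaks and the window after it had none. With bins shifted by 250 kb none of these 4 genes lay in a dense window.

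TGF-beta and BMP signalling was represented by a single window, and with shifted bins by Smad5 in place of its Smad3 and Smad6. At 63.5 Mb of chromosome 9, Smad3, the intracellular mediator of TGF-beta signals, had 13 peaks with a median width of 1209 bp, and Smad6, an inhibitor of BMP signalling, had 5 with a median of 1763 bp. A peak of 4052 bp in Smad6 was the widest of that window. Its 46 peaks had a median width of 938 bp, and there was no day 0 peak.

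WNT genes lay in 3 windows. Tcf7l2, a transcription factor that binds beta-catenin, had 18 peaks by position over 192 kb at 55.5 Mb of chromosome 19. Lrp6, a WNT co-receptor gene, had 6 peaks inside the window it shared with Etv6 at 134.0 Mb of chromosome 6, and 15 over its whole length. Ctnnb1, the beta-catenin gene, had 3 peaks at 120.5 Mb of chromosome 9, in a window where 72.3% of 47 peaks had no symbol and median width was 983 bp. The insulin pathway gave Rptor and Irs2. Irs2, an insulin receptor substrate gene, had 1 peak where it reaches into the window at 11 Mb of chromosome 8, and 3 over its whole length.

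Collagen genes outside the cartilage matrix list were also found. Col4a2 and Col4a1, a head-to-head pair that encodes basement membrane collagen IV, had 14 and 13 peaks in that same window on chromosome 8. Col5a1, a fibrillar collagen gene, had 7 peaks by position with a median width of 1698 bp at 27.5 Mb of chromosome 2, beside Rxra, a retinoid receptor gene, with 8. The Hoxa cluster, whose genes pattern the limb and axial skeleton, lay at 52.0 Mb of chromosome 6. Hoxa3 had 5 of its 42 peaks by position and Hoxa4 and Hoxa6 had 1 each, where annotated spans overlap and a peak can count for more than one gene, and 66.7% of the window's peaks had no symbol.

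Adjacent dense windows formed 10 pairs, which took in 20 of the 88. The pair with the most peaks spanned 118.0 to 119.0 Mb of chromosome 5, with 47 and 53 peaks, 100 together. Its second window held Med13l, which encodes a subunit of the Mediator kinase module, with 26 peaks by position, and its first held Fbxw8, an F-box protein gene, with 8. The other pairs had 83 to 89 peaks. On chromosome 5, the pair at 64.0 Mb held Tbc1d1 (22 peaks) and Klf3 (5), and the pair at 74.0 Mb held Scfd2 (27) and the ubiquitin ligase gene Lnx1 (13).

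On chromosome 6, the pair at 53.5 Mb joined Creb5, a transcription factor gene with 21 peaks by position, to Chn2, a Rac regulator gene with 25. The pair at 100 Mb joined the Rybp window to one with Shq1 (13) and Gxylt2 (11). On chromosome 11, the pair at 117.0 Mb joined Septin9, a cytoskeletal GTPase gene with 21 peaks and a window median width of 1013 bp, to a window with Tnrc6c (4) and Socs3 (1). On chromosome 13, the pair at 43.5 Mb held Rnf182 (5) and the window without a protein-coding gene before Jarid2, and the pair at 51.5 Mb held Sema4d (12) and the one before Diras2. Smoc2, a matricellular protein gene with 16 peaks, and Thbs2, a thrombospondin gene with 2, lay in the pair at 14.0 Mb of chromosome 17. Afap1l2 (8) and Ablim1 (29) lay in the pair at 56.5 Mb of chromosome 19.

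Wide peaks marked a few other windows besides that of Gse1. Median width was 1070 bp at 113.5 Mb of chromosome 5, with Ssh1 (7 peaks), a cofilin phosphatase gene, and 1022 bp at 140.5 Mb of chromosome 4, with Arhgef10l (15). The narrowest was 506 bp at 21 Mb of chromosome 5, with Gsap (13).

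Chondroprogenitor peaks were few but not absent. The dense windows held 50 of the 1026 day 0 peaks on these chromosomes, 1.14 per Mb (exact Poisson interval 0.843 to 1.50), against 0.406 per Mb in all other windows (0.381 to 0.432). By day 20 class the density was 0.104 per Mb in windows with no day 20 peak, 0.325 with 1 to 9, 0.468 with 10 to 19, 0.703 with 20 to 29, 0.958 with 30 to 39 and 1.14 in the dense windows. The intervals of the last 2 classes overlapped. There was no day 0 peak in 52 of the 88 windows, 1 in 28, 2 in 4 and 3 or 4 in 4.

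The day 0 peaks of the dense windows were narrow, with a median of 141 bp (85 to 301). Of the 50, 37 overlapped a day 20 peak (74%, 60.4 to 84.1), against 48.7% in all other windows (45.5 to 51.8). In windows with 30 to 39 peaks the share was 60.9% (53.4 to 68.0), an interval that overlapped that of the dense windows. All 37 lay wholly inside a day 20 peak, whose median width was 855 bp (471 to 2921), and 25 of those day 20 peaks were wider than the 720 bp median. A wide peak has more room to hold a day 0 peak than a narrow one, so these widths are a description. Day 20 peaks spanned 7.22% of the dense windows and 1.44% of all other windows, a difference that the choice of windows fixes in part, and the part of that in the higher overlap was not tested. Of the 13 that did not overlap, 5 lay within 1 kb of a day 20 peak and the farthest was 11.1 kb away.

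The 4 windows with 3 or more day 0 peaks differed in their genes. The Med13l window had 4, of which 3 lay in Med13l inside day 20 peaks of 752, 971 and 1228 bp. The window of Sulf2, an enzyme gene that trims heparan sulphate chains, at 166.0 Mb of chromosome 2 had 42 day 20 peaks and 4 day 0 peaks. One of those lay in Sulf2, inside a day 20 peak of 2921 bp that was the widest of the window. The Ablim1 window had 3 day 0 peaks, 2 of them overlapping day 20 peaks, and the Ssh1 window had 3, in Wscd2, in Ssh1 and between genes, all inside day 20 peaks.

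Gene starts were another feature that the choice of windows did not use directly. Of 385 annotated coding starts in the dense windows, each taken as the 300 bases described above, 39 were touched by a day 20 peak in 1 base or more (10.1%, 7.50 to 13.5), against 750 of 19700 elsewhere (3.81%) and 6.50% in windows with 30 to 39 peaks. The 39 belonged to 32 of the 301 genes with a start there. The overlap was 6 to 300 bases with a median of 166, and 12 lay wholly inside a peak. The start base itself lay in a peak for 23 of the 39, in 20 genes, which is 5.97% of the 385 starts (4.01 to 8.80), against 2.24% elsewhere (2.05 to 2.46) and 3.92% in windows with 30 to 39 peaks (3.16 to 4.86). By both measures the intervals of the dense windows and of the windows with 30 to 39 peaks overlapped. For the 300-base stretches the interval of the latter was 5.51 to 7.66. The larger span of peaks in the dense windows moves with this share as well, and its part was not tested.

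The starts touched by peaks were poor in CpG. Annotated starts include alternative ones inside a gene, such as those shown for Spp1, Foxp1, Ablim1 and Sema4d, and these were not separated from the others. In the dense windows the median was 7 CpG pairs in 300 bases for starts touched by a peak and 20 for those not touched, and in the other windows it was 8 and 14. Fewer than 10 CpG pairs were found in 26 of the 39 starts touched by a peak (66.7%) and in 98 of the 346 others (28.3%). In the other windows these shares were 56.3% and 41.7%. Of the 23 with the start base in a peak, 20 had fewer than 10 pairs (87.0%), and their median was 6. CpG-rich stretches touched by a peak included those of Hoxa5, Atoh8, a bHLH transcription factor gene, with 24 pairs, and Tasor, a gene-silencing factor, with 32, and in these 3 the start base lay outside the peak. The pattern was searched as the letters CG, which read the same on both strands, and a count is a description of the sequence alone.

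**Figure D4:**
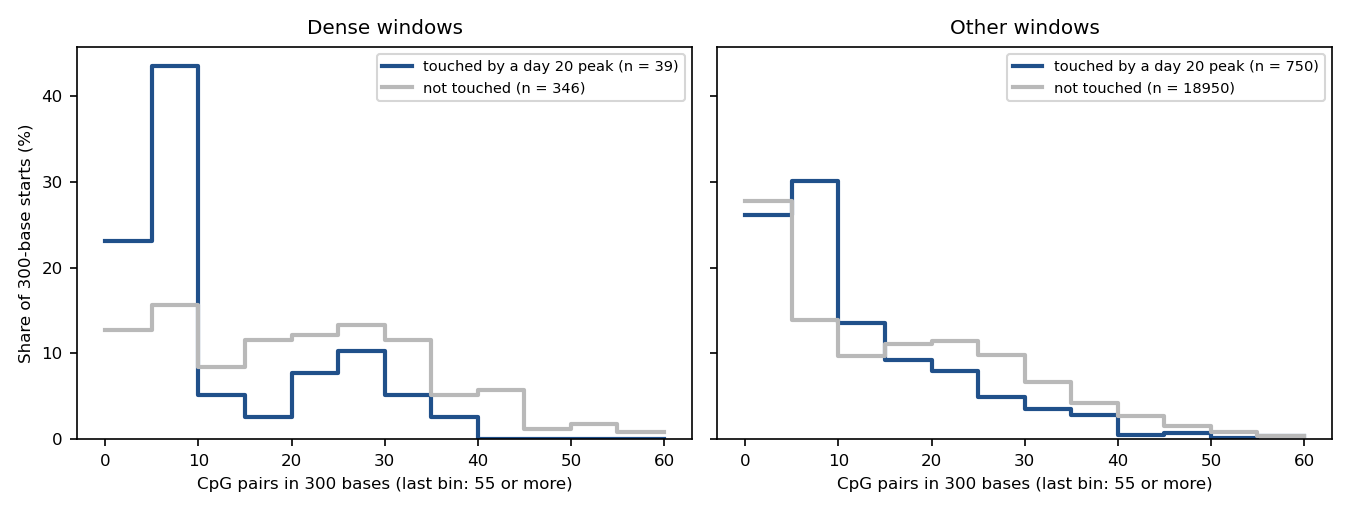
Share of coding gene starts (vertical axis, %) by number of CpG pairs in 300 bases (horizontal axis, bins of 5), for starts touched by a day 20 peak and starts not touched, in dense windows (left, 39 and 346 starts) and other windows (right, 750 and 18950). Starts touched by a peak are concentrated below 10 CpG pairs in the dense windows (66.7%, against 28.3% of the others).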

How the data were processed

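The samples were 4 libraries of ATDC5 DNA enriched for 5hmC with the Hydroxymethyl Collector kit, per the labels' protocols. The deposited files gave positions in base pairs (start, end) and a gene symbol for each peak; per the file headers, peaks were those at 10-fold enrichment after the libraries of a stage were merged. What the 10-fold was relative to, whether the day 19 library entered the day 20 list, and the read depth are not given in the sources used here, so precision is limited to counting. The submitters' processing notes list MACS 1.4.2, BWA, cutadapt and FastQC and the build mm10 (GRCm38) without saying how each was used. Of 56698 day 20 entries, 3 had no readable end and counted by start only; 0 of them lay in a dense window.

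A peak was placed by its start in windows of 500 kb from position 0 of each chromosome. Gene positions came from the RefSeq table of GRCm38.p6, and an overlap was at least 1 bp. All 2033 peaks with a symbol in dense windows were matched to the table. Of these, 22 were matched by accession because their symbol, that of Septin9, had become a date. Intervals are Wilson for shares, exact Poisson for densities and order statistics for medians, at 95%; they cover counting error only, and neighbouring peaks share their libraries. The steps were tested on simulated lists. The windows and gene lists were chosen with earlier results of these data known. Named genes were up to 3 symbols with the most peaks and the longest coding gene of a window, and every list member; windows described were the 10 with the most peaks, adjacent windows, and those with the most day 0 peaks or extreme symbol shares. Others, such as the windows of widest peaks, were chosen after their values were seen, as was the analysis of gene starts. Some named items are not reported here. Alternatives covered bin edges, placing, merging, threshold, peak width, gene extent and overlap. Python 3.11.15, numpy 2.4.6, pandas 2.3.3, scipy 1.17.1 and matplotlib 3.10.9 were used.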

Additional observations from a re-analysis of the deposited data

How the results depend on the processing

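The number of dense windows depended on the threshold: 88 windows became 205 at 35 peaks, 8 at 50 peaks, 35 when peaks within 1 kb were merged and 351 when only peaks at least as wide as the list's median were counted with a threshold of 20. Their share of day 20 peaks was 14.5%, 0.733%, 2.88% and 31.6% in those settings. The share without a symbol was 48.7% with bins shifted by 250 kb, 43.8% at 35 peaks and 56.0% at 50, each above the other windows, and 38.5% with wide peaks, against 37.1% elsewhere in that setting. Median width was 702 bp at 35 peaks, 740 bp at 50, 784 bp after merging and 853 bp with wide peaks. Day 0 density was 1.75 per Mb at 50 peaks (exact Poisson interval 0.704 to 3.61, other windows 0.417). In that setting 85.7% of 7 day 0 peaks overlapped a day 20 peak (other windows 49.7%). The overlap was 57.8% with wide peaks (other windows 29.2%). The share in a protein-coding gene was 51.0% at 35 peaks (other windows 55.4%), 52.8% at 50 (54.8%), 56.2% with wide peaks (57.5%) and 52.7% with 5 kb added to both sides of genes (62.4%). Of 280 gene list members, 33 overlapped a dense window at 35 peaks, beside 1099 of 20665 protein-coding genes. The counts were 5 beside 34 at 50 peaks, and 50 beside 2328 with wide peaks. With shifted bins the members again numbered 15, beside 354, and 3 of them were shared with the 15 reported. Gene starts touched by a peak were 6.90% at 35 peaks (other windows 3.77%) and 4.28% with wide peaks (2.09%). The start base itself lay in a peak for 5.97% (2.24%). The causes were not tested. Of 66 alternative values 29 moved beyond the counting interval or the allowed range of a count, and 37 did not. With shifted bins 50 of the 88 windows overlapped a dense window. No paired analysis was possible because each stage had a single merged list, and no replicate could be left out for the same reason.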

Other observations

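Chromosome X was outside the rule. It held 588 day 20 peaks, and its densest 500 kb window had 31.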
